A study of Mus musculus with 9 samples.

Results

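The genes described here are 10 markers of tissue-resident macrophages, Cd68, Adgre1, Mrc1, Cd163, Mertk, Timd4, Vcam1, Lyve1, Siglec1 and Marco, in the mandible of FcγRIIB-/- mice and WT controls. They were chosen by name, and each was 1 of the 27179 genes in the count table. 9 of the 10 were among the 16329 genes with enough reads to be tested, and Marco was not. Macrophages that live in a tissue clear dying cells, take up hemoglobin and spent red cells, and in marrow surround maturing erythroblasts. Their shared markers are a lysosomal protein (Cd68) and the surface protein F4/80 (Adgre1), and the other markers are receptors through which they bind sugars, dying cells, other cells or matrix. Several are also made by other cells: Vcam1 and Lyve1 by endothelium, and Mertk by epithelial and neural cells.

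Whole mandibles including the teeth were taken from 5 WT mice and from 4 mice with a germline deficiency of FcγRIIB, the inhibitory Fc receptor whose loss is used as a model of lupus. All were C57BL/6 males at 6 months of age, and the RNA of each mandible was that of 1 mouse, sequenced as a stranded poly(A) library. Library totals lay between 21453880 and 28991631 counts, with no pair of libraries near-identical. Fcgr2b, the gene deleted in the mutant, was not lower in libraries with the mutant label. It had 20.9, 38.3, 17.0, 23.1 and 20.7 CPM (counts scaled to library size after TMM) in WT replicates 1 to 5, and 26.5, 26.0, 26.6 and 32.1 CPM in replicates 1 to 4 labelled FcγRIIB-/-. It differed by 0.21 on the log2 scale (edgeR quasi-likelihood adjusted p = 0.442, standard error 0.20), and without WT replicate 2 the difference was 0.46 and passed as higher (adjusted p = 0.0131, edgeR). Every direction below is therefore between libraries by their labels. 2 WT libraries stood apart. WT replicate 2 held 200 counts of the B cell receptor gene Cr2 and 405 of Ms4a1, where the other WT libraries held 8 to 17 and 42 to 111, and the summed level of 10 neutrophil genes in WT replicate 5 was 3471 CPM against a WT median of 1671. Counts of calls are therefore also given without these 2 libraries.

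Promoters are shown for 3 markers that did not move alike: Cd68 and Mrc1, which were lower in the libraries labelled FcγRIIB-/-, and Mertk, which was not called. Each is the RefSeq sequence of GRCm38.p6 (the mm10 build) from 250 bases before to 50 bases after the gene start, read 5′ to 3′ on the gene's strand, at chr11:69666121-69666420 on the minus strand for Cd68, chr2:14229164-14229463 on the plus strand for Mrc1 and chr2:128698665-128698964 on the plus strand for Mertk. Capitals mark matches, on either strand, to 3 patterns. These are GAGGAA, the core bound by the macrophage factor PU.1, CCNCNCCC, a loose pattern for sites of KLF factors, and GGNNTTTCC, an NF-kappa B site. CCNCNCCC does not require the letters CACCC, and the marked stretches of Mrc1 and Mertk that fit it do not hold them.
Cd68: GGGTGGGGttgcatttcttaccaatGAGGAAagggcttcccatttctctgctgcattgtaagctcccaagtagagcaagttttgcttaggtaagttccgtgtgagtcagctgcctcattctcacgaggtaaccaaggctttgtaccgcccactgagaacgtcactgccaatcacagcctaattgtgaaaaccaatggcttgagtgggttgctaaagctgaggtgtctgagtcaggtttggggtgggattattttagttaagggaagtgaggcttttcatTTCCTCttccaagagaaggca
Mrc1: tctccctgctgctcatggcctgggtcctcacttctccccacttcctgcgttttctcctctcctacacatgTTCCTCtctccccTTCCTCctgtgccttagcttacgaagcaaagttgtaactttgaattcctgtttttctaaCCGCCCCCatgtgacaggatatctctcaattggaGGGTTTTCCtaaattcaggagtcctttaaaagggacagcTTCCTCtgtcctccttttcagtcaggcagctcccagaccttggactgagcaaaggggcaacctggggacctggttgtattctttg
Mertk: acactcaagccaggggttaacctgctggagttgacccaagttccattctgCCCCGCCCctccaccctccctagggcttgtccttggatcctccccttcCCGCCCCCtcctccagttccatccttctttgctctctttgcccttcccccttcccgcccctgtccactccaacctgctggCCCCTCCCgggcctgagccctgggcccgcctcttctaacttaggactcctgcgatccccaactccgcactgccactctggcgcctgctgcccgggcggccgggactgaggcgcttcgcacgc
The Cd68 window held 2 PU.1 cores and 1 match to CCNCNCCC. The Mrc1 window held 3 PU.1 cores, 1 match to CCNCNCCC and 1 NF-kappa B match. The Mertk window held 3 matches to CCNCNCCC and no PU.1 core. Among 32851 promoter windows of the same length, 28.3% held GAGGAA, 49.5% held CCNCNCCC and 5.82% held GGNNTTTCC. Of the other markers, Marco had 1 PU.1 core and 1 NF-kappa B match, Timd4 had 2 matches to TGCTGA, a core bound by MAF factors and held by 19.5% of the windows, and Cd163 had no match to any of the 4 motifs. Adgre1, Vcam1, Lyve1 and Siglec1 were not matched in the promoter table. These matches describe letters in 1 window per gene and were not tested against the changes.

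To determine how macrophage markers differed between the genotypes, edgeR's quasi-likelihood test was run on all genes. 5 of the 10 markers (Cd68, Adgre1, Mrc1, Vcam1 and Siglec1) were lower in the libraries labelled FcγRIIB-/- (log2 fold changes of -1.03 to -0.60), where 19.3% of all tested genes were called lower. 0 of 10 were called higher, where 14.0% of all genes were. At an unadjusted p under 0.05, edgeR gave 6 lower and 1 higher, the last being Lyve1, and the share of all genes at that threshold is not given. DESeq2 gave 6 lower and 1 higher at an adjusted p under 0.05, where it called 3204 of all genes lower and 2831 higher. The median log2 fold change of the 9 tested markers was -0.64, beside 0.01 over all tested genes. Without WT replicates 2 and 5 this median was -0.38, beside 0.03 over all tested genes. In 3 of the 10 (Mrc1, Vcam1 and Siglec1) every WT library lay above every library labelled FcγRIIB-/-, which held for 17.5% of tested genes. The opposite order held for 0 markers and for 12.1% of tested genes. Without WT replicates 2 and 5, Mrc1, Vcam1 (by a smaller log2 fold change, -0.46) and Siglec1 were still called lower, where 12.6% of all genes were, while Cd68 had a log2 fold change of -0.33 (adjusted p = 0.0514) and Adgre1 of -0.38 (adjusted p = 0.110). In bulk tissue, fewer macrophages, less RNA of these genes per macrophage and shifts in the RNA of other cells cannot be told apart.

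**Figure D1:**
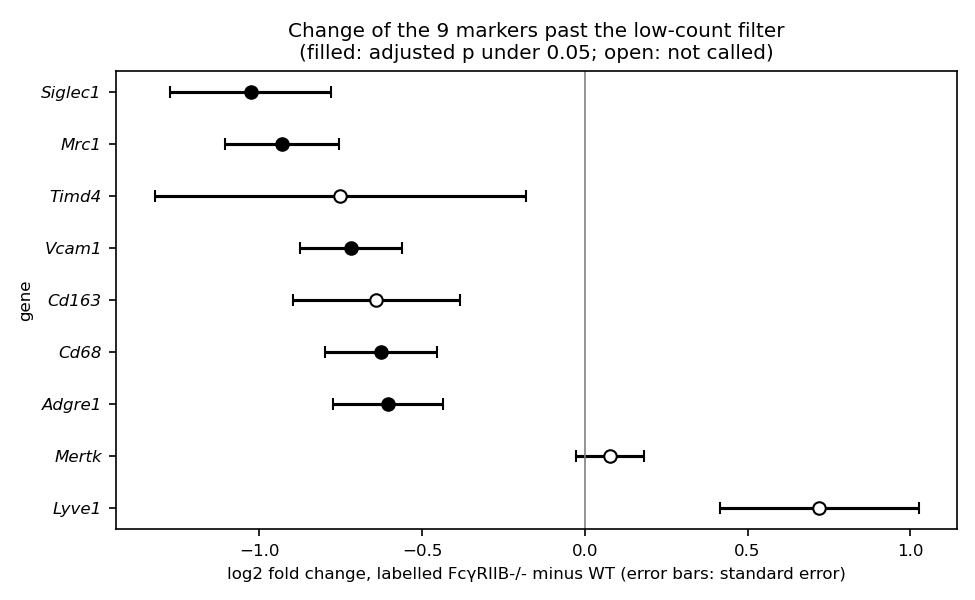
log2 fold change (libraries labelled FcγRIIB-/- minus WT) of the 9 tested markers, ordered by size, with the standard error of edgeR's fit as bars and filled points for an adjusted p under 0.05. 5 points are filled and lie between -1.03 and -0.60, Mertk sits near 0 at 0.08, and Lyve1 lies on the other side at 0.72 with an open point.

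Levels can be compared between genes only per length, as RPKM (CPM divided by the length in kilobases of all annotated exons of the gene together). The order below depends on this choice of length, which was 1257 bases for Cd68 and 8870 bases for Vcam1. In WT, Cd68 was the most abundant marker at 25.5 ± 6.76 RPKM (SD, n = 5), and every WT library had more Cd68 than any had of the marker below it. Mertk followed at 10.9 ± 1.67 RPKM, but its range overlapped with that of Adgre1 (9.76 RPKM), which overlapped with Mrc1 (9.50 RPKM) and Mrc1 with Vcam1 (7.82 RPKM). Lyve1 (2.62 RPKM), Cd163 (1.62 RPKM) and Siglec1 (0.979 RPKM) formed a lower step with overlapping neighbours, and Timd4 (0.230 RPKM) and Marco (0.169 RPKM) lay at the bottom. In the libraries labelled FcγRIIB-/-, Cd68 at 16.5 ± 1.81 RPKM (SD, n = 4) and Mertk at 11.5 ± 0.573 RPKM led, neither overlapping with the marker below. Adgre1 (6.41 RPKM), Mrc1 (4.98 RPKM), Vcam1 (4.75 RPKM) and Lyve1 (4.33 RPKM) came next, each overlapping with its neighbour. Lyve1 thus lay next to Vcam1 within an overlapping step in these libraries, whereas in WT a gap without overlap separated the ranges of both genes.

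The pan-macrophage markers were lower by similar amounts. Cd68 (gene identifier 12514, chr11:69664213-69666170) had 28.1, 35.6, 24.0, 27.4 and 45.2 CPM in WT replicates 1 to 5 and 19.2, 20.3, 19.5 and 24.1 CPM in replicates 1 to 4 labelled FcγRIIB-/-. WT replicates 5 and 2 were the highest, and the groups overlapped only where WT replicate 3 met replicate 4 labelled FcγRIIB-/-. Its mean was 32.1 ± 8.50 CPM (SD, n = 5) in WT and 20.8 ± 2.28 CPM (SD, n = 4) in the other group, and it fell by 0.63 on the log2 scale (standard error 0.17, adjusted p = 0.0188, edgeR). Adgre1 (gene identifier 13733, chr17:57358581-57483529), the gene of the adhesion receptor F4/80, had 27.9, 35.5, 24.1, 30.2 and 40.4 CPM in WT and 23.9, 15.7, 24.5 and 19.0 CPM in the libraries labelled FcγRIIB-/-. Here too the groups met only at WT replicate 3, and Adgre1 fell by 0.60 (standard error 0.17, adjusted p = 0.0205, edgeR). Both calls were near the threshold: the adjusted p of Cd68 reached 0.0513 without a single library labelled FcγRIIB-/- (replicate 1 or replicate 3), and that of Adgre1 reached 0.0551 (replicate 2 or replicate 4).

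**Figure D2:**
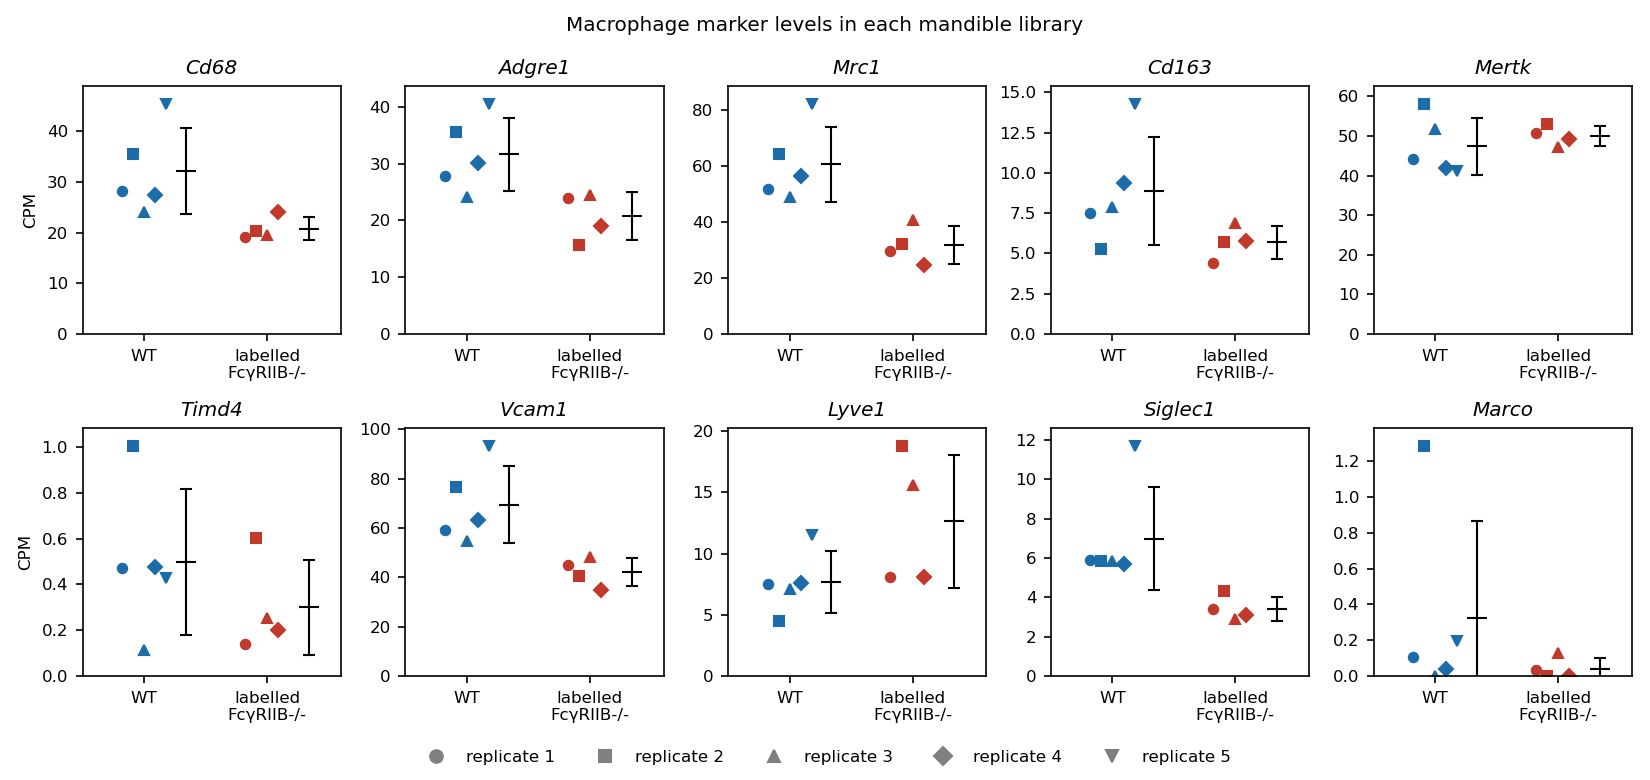
CPM of each of the 10 markers (y axis, from 0, a scale per panel) in every library, with 1 symbol per replicate number, WT in blue and the libraries labelled FcγRIIB-/- in red, and the mean and SD of each group beside them. Mrc1, Vcam1 and Siglec1 show no overlap between the groups, WT replicate 5 is the highest point for 6 markers and WT replicate 2 for 3, and Lyve1 is highest in replicate 2 labelled FcγRIIB-/-.

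Among scavenger and lectin receptors, Mrc1 and Siglec1 were lower and Cd163 was not called. Mrc1 (gene identifier 17533, chr2:14229414-14332023) encodes CD206, the mannose receptor, which clears glycoproteins and collagen fragments. It had 51.6, 64.0, 48.8, 56.2 and 81.9 CPM in WT replicates 1 to 5 and 29.5, 32.1, 40.8 and 24.6 CPM in replicates 1 to 4 labelled FcγRIIB-/-. The lowest WT library lay above the highest library of the other group, and the mean of 60.5 ± 13.3 CPM (SD, n = 5) stood against 31.8 ± 6.79 CPM (SD, n = 4). Mrc1 fell by 0.93 on the log2 scale (standard error 0.17, adjusted p = 0.00335, edgeR). Siglec1 (gene identifier 20612, chr2:131067801-131086778), the sialic acid receptor CD169 of marrow and lymph node macrophages, had 5.91, 5.86, 5.82, 5.69 and 11.7 CPM in WT and 3.40, 4.30, 2.92 and 3.09 CPM in the libraries labelled FcγRIIB-/-. 4 WT libraries lay within a narrow range and WT replicate 5 far above them, and all 5 lay above the other group. Siglec1 fell by 1.03 (standard error 0.25, adjusted p = 0.0103, edgeR), and without WT replicates 2 and 5 it fell by 0.74. Cd163 (gene identifier 93671, chr6:124304636-124330529), the receptor for hemoglobin bound to haptoglobin, had 7.54, 5.30, 7.86, 9.40 and 14.2 CPM in WT and 4.41, 5.68, 6.91 and 5.78 CPM in the libraries labelled FcγRIIB-/-. WT replicate 2 lay inside the other group's range, and the log2 fold change of -0.64 (standard error 0.26) had an adjusted p of 0.0772 in edgeR. It passed with DESeq2 (adjusted p = 0.0486) and without WT replicate 2 (adjusted p = 0.0294, edgeR), and without WT replicate 5 it shrank to -0.38 (adjusted p = 0.165, edgeR). Marco (gene identifier 17167, chr1:120474538-120505024), a scavenger receptor of splenic marginal zone and alveolar macrophages, had 3, 32, 0, 1 and 5 counts in WT and 1, 0, 3 and 0 counts in the libraries labelled FcγRIIB-/-. 32 of its 41 WT counts came from WT replicate 2, the library that was also high in Cr2 and Ms4a1, and the part of that library's make-up in the Marco count was not tested.

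The receptors for dying cells did not pass the test. Mertk (gene identifier 17289, chr2:128698915-128803162), a receptor tyrosine kinase that engulfs apoptotic cells through the bridging proteins Gas6 and protein S, had 44.3, 58.0, 51.7, 41.9 and 41.2 CPM in WT replicates 1 to 5 and 50.7, 53.1, 47.2 and 49.2 CPM in replicates 1 to 4 labelled FcγRIIB-/-. All 4 of the latter lay within the WT range. The mean was 47.4 ± 7.22 CPM (SD, n = 5) in WT and 50.0 ± 2.49 CPM (SD, n = 4) in the other group, a difference of 0.08 on the log2 scale (standard error 0.10, adjusted p = 0.592, edgeR). WT replicate 5, the highest library for Cd68, was the lowest for Mertk. Timd4 (gene identifier 276891, chr11:46810786-46844333), the phosphatidylserine receptor of long-lived resident macrophages, had 13, 25, 3, 13 and 11 counts in WT and 4, 13, 6 and 4 counts in the libraries labelled FcγRIIB-/-. Its groups overlapped, and the log2 fold change of -0.75 had a standard error of 0.57 (adjusted p = 0.333, edgeR), so that a change of the size seen for Mrc1 was not detectable at this depth. The value also hung on single libraries: it was -0.33 without WT replicate 2 and -1.32 without replicate 2 labelled FcγRIIB-/-.

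Vcam1 and Lyve1, which bind other cells and matrix, differed in direction. Vcam1 (gene identifier 22329, chr3:116110020-116129688), through which island macrophages hold erythroblasts and which endothelium and stroma also carry, had 59.1, 76.7, 54.7, 63.4 and 93.1 CPM in WT replicates 1 to 5 and 45.0, 40.4, 48.3 and 35.0 CPM in replicates 1 to 4 labelled FcγRIIB-/-. The groups did not overlap, and Vcam1 fell by 0.72 on the log2 scale (standard error 0.16, adjusted p = 0.00667, edgeR). Lyve1 (gene identifier 114332, chr7:110850607-110862953), a hyaluronan receptor of lymphatic vessels and of macrophages beside blood vessels, had 7.50, 4.49, 7.09, 7.64 and 11.6 CPM in WT and 8.06, 18.8, 15.6 and 8.11 CPM in the libraries labelled FcγRIIB-/-. Replicates 2 and 3 with this label were high, and the other 2 lay inside the WT range. Lyve1 differed by 0.72 on the log2 scale (standard error 0.31, adjusted p = 0.0925, edgeR). It passed as higher with DESeq2 (adjusted p = 0.0464) and without WT replicate 5 (log2 fold change 0.94, adjusted p = 0.0374, edgeR). Without replicate 2 labelled FcγRIIB-/- it shrank to 0.47 (adjusted p = 0.271, edgeR), and without replicate 3 it was 0.60 (adjusted p = 0.207, edgeR).

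**Figure D3:**
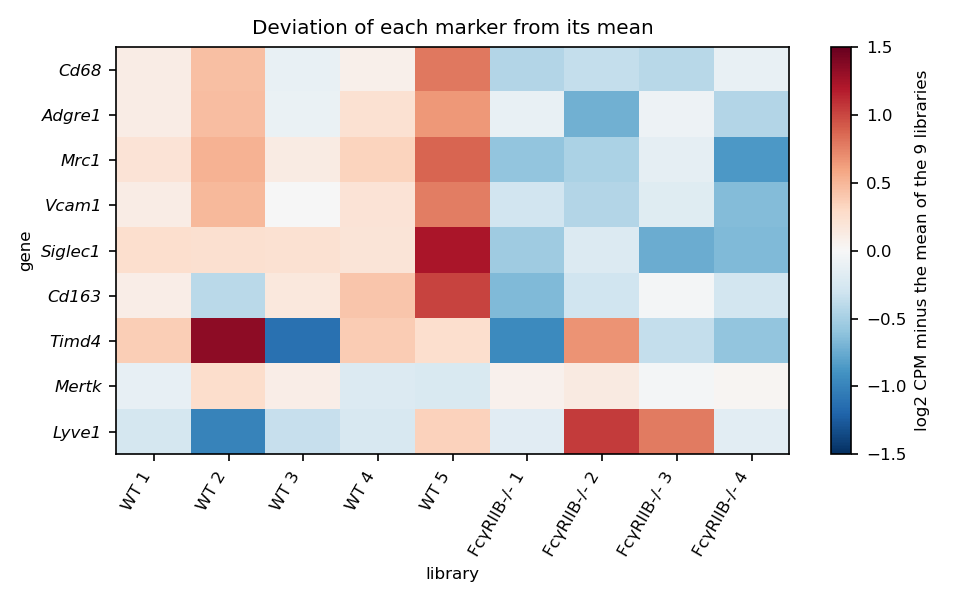
log2 CPM of the 9 tested markers minus each marker's mean over the 9 libraries (colour, red above and blue below the mean), with libraries in columns. WT replicate 5 is above the mean in every row but Mertk, and replicates 2 and 3 labelled FcγRIIB-/- are above it for Lyve1.

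To ask which markers moved apart from Cd68, each gene was divided by Cd68 of the same library. Which cells of the mandible the Cd68 reads came from was not tested. Cd68 was itself lower (log2 fold change -0.63), so a gene that does not change has a higher ratio to it. Adgre1, Mrc1 and Vcam1 kept near-constant ratios to Cd68 among WT libraries, and their ratios spread more among the libraries labelled FcγRIIB-/-. Adgre1 had 89.3 to 110.3 reads per 100 Cd68 reads in WT and 77.0 to 125.7 in the libraries labelled FcγRIIB-/-, so that the latter lay on both sides of WT. Vcam1 had 205.8 to 231.8 in WT and 145.2 to 248.0 in the other group. Mrc1 had 180.1 to 205.6 reads per 100 Cd68 reads in WT, against 153.8, 158.0, 209.3 and 101.9, of which 3 lay below WT and 1 above. Lyve1 had 26.6, 12.6, 29.6, 27.9 and 25.5 reads per 100 Cd68 reads in WT. It had 42.0, 92.3, 80.0 and 33.6 in the libraries labelled FcγRIIB-/-, without overlap. The share of all genes whose ratios did not overlap is not given here. Mertk had 157.3, 163.1, 215.6, 153.2 and 91.1 in WT and 264.1, 260.9, 242.0 and 204.0 in the other group, which overlapped only at WT replicate 3.

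In limma's test of these log2 ratios over all genes, 2 of the 8 other tested markers were higher relative to Cd68, where 53.0% of all genes were, and 0 of 8 were lower, where 4.84% of all genes were. At an unadjusted p under 0.05 limma also gave 0 lower (share of all genes not given), and no other tool was run on the ratios across all genes. Lyve1 was higher by 1.27 on the log2 scale relative to Cd68 (standard error 0.27, adjusted p = 3.5e-05, limma) and Mertk by 0.68 (standard error 0.24, adjusted p = 0.0115, limma). Mrc1 differed by -0.34 (adjusted p = 0.202) and Siglec1 by -0.37 (adjusted p = 0.244) in the same limma fit, and Adgre1, Vcam1, Cd163 and Timd4 by -0.11 to 0.04. All ratios share the measurement error of Cd68, and in simulated data these adjusted p-values let through more false calls than their threshold allows, so they are given as a description. A two-sided exact permutation test of each ratio over the 9 libraries was chosen after seeing the data. In this permutation test Lyve1 had p = 0.00794, the smallest that the 126 arrangements can give, and Mertk p = 0.0238, among 8 such tests without adjustment. It was run on the markers only, so no share of all genes stands beside it. With Adgre1 in place of Cd68, Lyve1 was higher by 1.28 and Mertk by 0.69, and with Csf1r by 1.52 and 0.93. Adgre1 and Csf1r were themselves lower (log2 fold changes of -0.60 and -0.86), so an unchanged gene is also higher relative to them. These 2 references therefore cannot show that Mertk rose, and its own log2 fold change was 0.08. The Mertk ratio missed the threshold without replicate 1 labelled FcγRIIB-/- (0.64, adjusted p = 0.0523, limma) and without replicate 2 (0.64, adjusted p = 0.0513, limma).

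**Figure D4:**
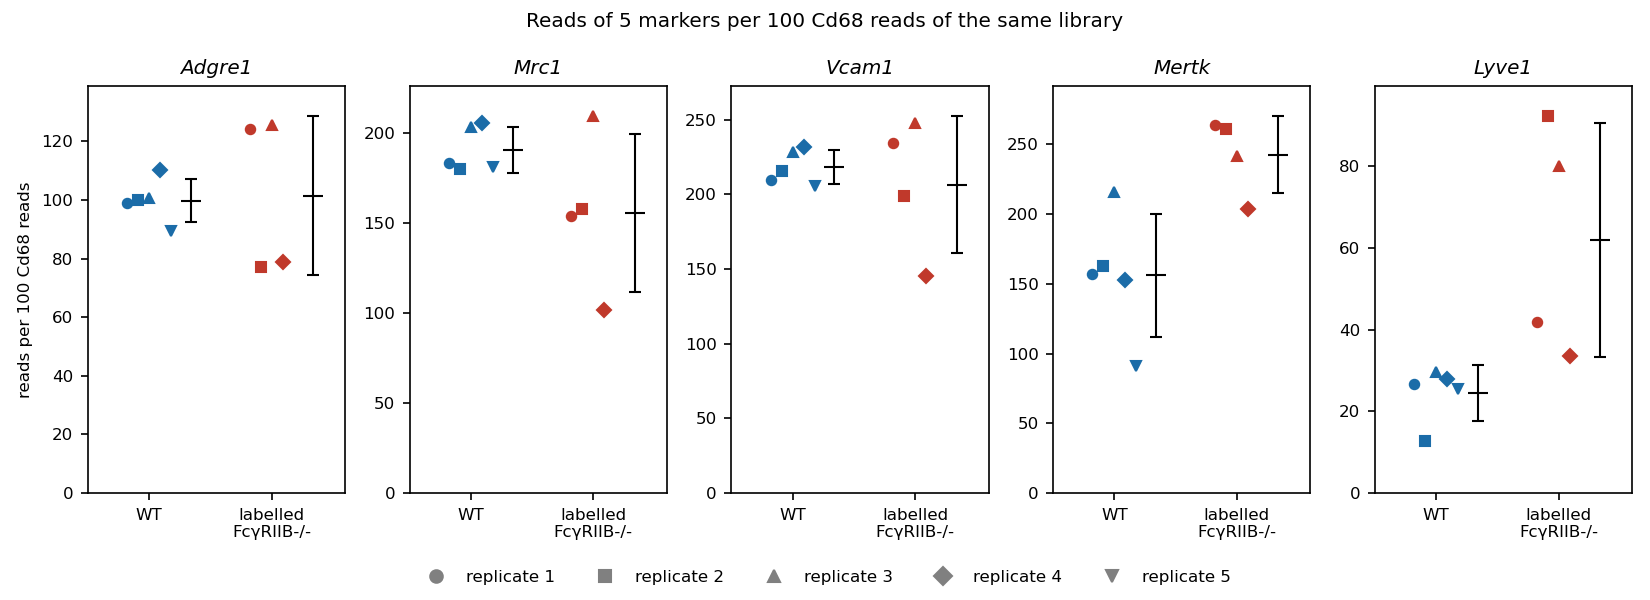
Reads of 5 markers per 100 Cd68 reads of the same library (y axis, from 0), with 1 symbol per replicate number and the mean and SD of each group. Lyve1 does not overlap between the groups, Mertk overlaps at WT replicate 3 only, and the WT points of Adgre1, Mrc1 and Vcam1 lie close together.

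Genes that specify macrophages or keep them alive were lower in part. Of 15 lineage genes, 7 were lower and 2 were higher, beside 19.3% and 14.0% of all tested genes, and 6 did not pass, with a median log2 fold change of -0.14. Leaving out WT replicates 2 and 5 gave 5 lower and 2 higher, beside 12.6% and 9.04% of all genes, and a median of -0.03. Spic, the factor of red pulp and marrow macrophages that recycle iron, fell by 1.53 (standard error 0.23, adjusted p = 0.00117, edgeR), and Irf8, a factor of monocytes and dendritic cells, fell by 1.10 (standard error 0.22, adjusted p = 0.00423, edgeR). Csf1r, the receptor for the survival signal M-CSF, had 118 ± 21.1 CPM (SD, n = 5) in WT and 65.3 ± 5.44 CPM (SD, n = 4) in the other group, and its ligand Csf1 had 62.2 ± 1.76 and 46.2 ± 1.01 CPM. Both passed as lower (log2 fold changes of -0.86 and -0.43), whereas Il34, the other ligand of Csf1r, had a log2 fold change of -0.14 (adjusted p = 0.562, edgeR). Id3 and Maf, the most abundant members that did not pass, had log2 fold changes of 0.15 and 0.29. Nr1h3 (LXR alpha, a sterol sensor) rose by 0.60 and Cebpb by 0.63.

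The uptake of dying cells was covered by 20 genes, of which 19 were tested, 10 were lower and 2 were higher (19.3% and 14.0% of all genes), and 7 did not pass, with a median log2 fold change of -0.22. 9 were lower and 2 higher without WT replicates 2 and 5 (12.6% and 9.04% of all genes in that fit), and the median was -0.13. Stab2, a scavenger receptor of sinusoidal endothelium, fell by 2.42 (standard error 0.33, adjusted p = 0.000765, edgeR) and Rac2, the GTPase of blood cells that drives engulfment, fell by 1.90 (standard error 0.26, adjusted p = 0.000833, edgeR). Of this list, Stab2 also stands in the lymphatic list below and Itgb3 in the osteoclast list. The cells from which the reads of this list came were not tested. The kinases related to Mertk, Axl and Tyro3, had log2 fold changes of -0.04 and 0.03 and did not pass. Of their bridging proteins, Gas6 fell by 0.45 (adjusted p = 0.00563, edgeR), and Pros1 had 119 ± 3.58 CPM (SD, n = 5) in WT and 119 ± 21.4 CPM (SD, n = 4) in the other group. The complement genes C1qa, C1qb and C1qc, which resident macrophages make in large amounts, had log2 fold changes of -0.06, 0.20 and 0.04, none passing. Mfge8, another bridge to dying cells, rose by 0.31 and Cd36 by 0.58.

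Of 22 other genes of resident macrophages, 21 were tested, 9 were lower and 1 was higher (19.3% and 14.0% of all genes), and 11 did not pass, with a median log2 fold change of -0.24. In the fit without WT replicates 2 and 5, 7 were lower and 2 higher (12.6% and 9.04% of all genes), and the median was 0.02. Cd5l, a secreted protein of tissue macrophages, fell by 2.72 (standard error 0.59, adjusted p = 0.00659, edgeR) and the lectin Cd209f fell by 1.42 (standard error 0.30, adjusted p = 0.00591, edgeR). Apoe and Lgmn, the most abundant genes of the list that did not pass, had log2 fold changes of 0.04 and -0.03. Folr2, which is often found together with Lyve1 on macrophages beside vessels, had 4.68 ± 1.21 CPM (SD, n = 5) in WT and 4.80 ± 0.335 CPM (SD, n = 4) in the other group (log2 fold change 0.04, adjusted p = 0.894, edgeR). Cbr2 was the gene called higher, by 0.49. The 15 genes of erythroblastic islands and iron recycling gave 7 lower and 2 higher (the same shares of all genes apply), 6 that did not pass, and a median log2 fold change of -0.35. Without WT replicates 2 and 5, 5 were lower and 2 higher (12.6% and 9.04% of all genes), and the median was -0.19. Hp, haptoglobin, fell by 2.23 (standard error 0.38, adjusted p = 0.00213, edgeR) and Epor, the erythropoietin receptor, fell by 1.71 (standard error 0.18, adjusted p = 0.000215, edgeR), while the exporter Slc40a1 and the ferritin chain Fth1 rose by 0.38 and 0.46. Genes of neutrophils and erythroid cells were lower as well (below), and which cells the Hp and Epor reads came from was not tested. Ftl1 and Maea had log2 fold changes of 0.27 and -0.03 and did not pass. Csf1r, Spic and the C1q genes stand in 2 of these 4 lists each.

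**Figure D5:**
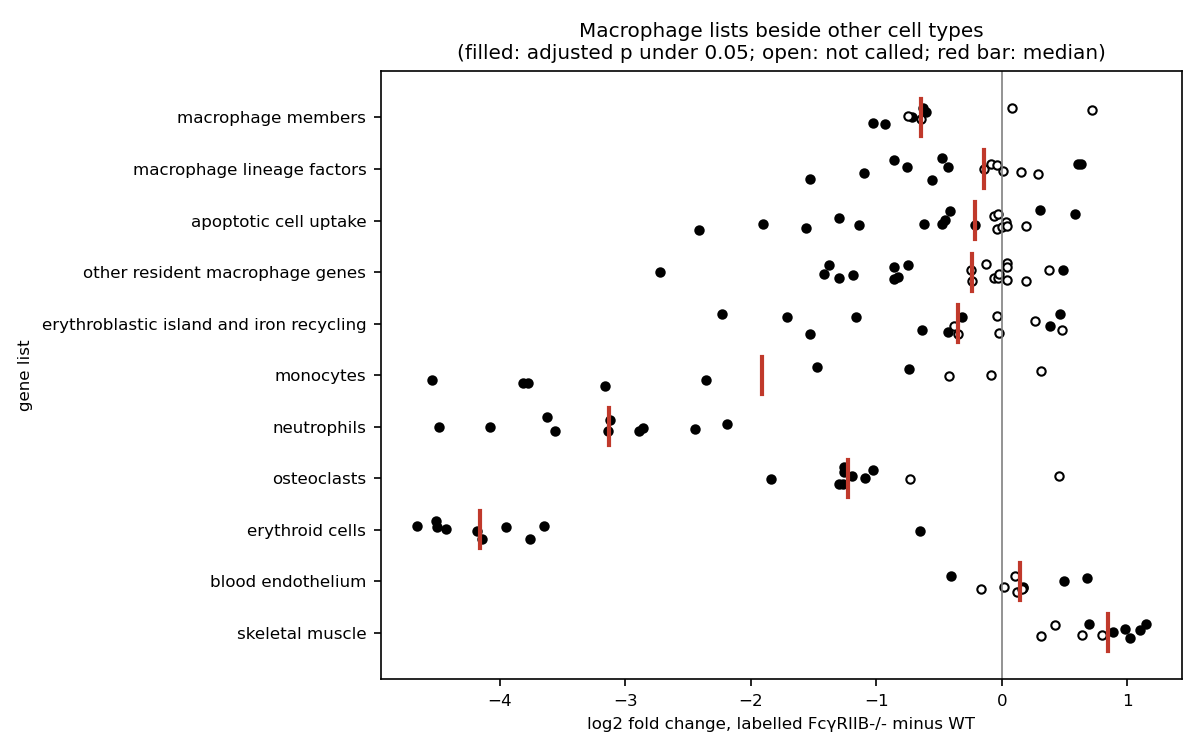
log2 fold change (x axis, libraries labelled FcγRIIB-/- minus WT) of each tested gene of the macrophage lists and of 6 other cell type lists, 1 list per row, filled for an adjusted p under 0.05 in edgeR, with the median as a red bar. The medians of the 5 macrophage lists lie between -0.64 and -0.14, those of neutrophil and erythroid genes at -3.13 and -4.16, and that of muscle genes at 0.84.

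Markers of other cells that a whole mandible holds moved with the genotype labels as well, and their part in the macrophage values was not tested. The counts below stand beside 19.3% lower and 14.0% higher among all tested genes. Neutrophil genes were lower in 10 of 10, with a summed level of 1140 to 3471 CPM in WT and 140 to 421 CPM in the libraries labelled FcγRIIB-/-, and log2 fold changes of -4.48 for Ngp and -4.08 for Mmp8. Erythroid genes were also lower in 10 of 10 (780 to 963 CPM against 196 to 299.6 CPM), with log2 fold changes of -4.66 for Slc4a1 and -4.51 for Rhag. The largest part of that sum was Tfrc, with a mean of 349 CPM in WT and 221 CPM in the other group. Monocyte genes were lower in 7 of 10 (1075 to 1746 CPM against 638 to 1022 CPM), with log2 fold changes of -4.54 for Cd177, a gene known chiefly from neutrophils, and -3.82 for Ly6c2, while Fn1 and Plac8 did not pass. Most of that sum was Fn1, a matrix gene of many cells, with a mean of 931 CPM in WT and 694 CPM in the other group. Osteoclast genes, from cells that share a progenitor with macrophages, were lower in 8 of 10 (1142 to 1497 CPM against 695 to 812 CPM), with log2 fold changes of -1.84 for Mmp9 and -1.30 for Itgb3, while Ckb and Calcr did not pass. B lineage genes were lower in 7 of 10, with ranges of 77.0 to 163 CPM and 56.1 to 82.4 CPM that overlapped, with log2 fold changes of -3.29 for Rag1 and -3.15 for Ms4a1, while Blnk and Pax5 did not pass. Blnk was the largest part of that sum, with a mean of 35.5 CPM in WT and 45.4 CPM in the other group. Dendritic cell genes were lower in 6 of 10 (414 to 869 CPM against 271 to 472 CPM), with log2 fold changes of -1.67 for Siglech and -1.30 for Flt3, while H2-Ab1 and Itgax did not pass. The median log2 fold changes of these 6 lists, in the order given, were -3.13, -4.16, -1.92, -1.23, -2.05 and -0.80, all beyond the -0.64 of the macrophage markers. Without WT replicates 2 and 5, 10 neutrophil, 10 erythroid, 7 monocyte, 7 osteoclast, 7 B lineage (of 9 tested) and 3 dendritic cell genes were lower. In that fit 12.6% of all genes were lower.

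Endothelium, stroma, muscle and epithelium gave calls in both directions, beside the same shares of all genes. Blood endothelium gave 1 gene of 10 lower and 2 higher, near those shares, and 7 that did not pass (598 to 697 CPM against 627 to 708 CPM, median log2 fold change 0.14), with Sox17 and Esam higher by 0.68 and 0.50 and Pecam1 and Cdh5 not passing. Of 9 tested lymphatic genes, 5 were lower and 2 were higher (333 to 368 CPM against 353 to 383 CPM, median -0.32). Stab2 and Mmrn1 fell most (log2 fold changes of -2.42 and -1.56). Prox1, which defines lymphatic identity and lay under 1 CPM on average in both groups, fell by 1.41 (adjusted p = 0.0227, edgeR). Flt4 and Reln fell by 0.32 and 0.75. Tbx1 and Pdpn rose by 0.51 and 0.29, Fxyd6 and Sema3d did not pass, and Ccl21a had 0 counts in every library. Replicate 2 labelled FcγRIIB-/- had the highest Lyve1 and also the highest summed lymphatic level (383 CPM). Sema3d and Fxyd6 were the largest parts of that sum, with means of 103.7 and 103.6 CPM in the libraries labelled FcγRIIB-/-, where Prox1 had 0.33 CPM. Which cells the Lyve1 reads came from was not tested. Marrow and bone stroma gave 4 lower and 2 higher of 10 (1101 to 1354 CPM against 926 to 1072 CPM, median -0.26), with log2 fold changes of -1.53 for Adipoq, -0.89 for Lepr, and Pdgfrb and Ly6a not passing. Skeletal muscle genes were higher in 6 of 10 (8069 to 18965 CPM against 18804 to 32299 CPM, median 0.84), Tnnt3 by 1.14 and Mylpf by 1.10, while Myh1 and Acta1 did not pass. Keratinized epithelium gave 7 lower and 1 higher of 9 tested (3251 to 7635 CPM against 4287 to 5256 CPM, median -3.25), with log2 fold changes of -7.27 for Flg and -6.75 for Lor, while Krt14 did not pass. The largest parts of that sum were Krt14 (mean 2270 CPM in WT, 2674 CPM in the other group) and Krt5 (1618 and 2122 CPM). Relative to Cd68, 8 of 10 blood endothelial genes were higher and 0 lower in limma, while 10 of 10 neutrophil and 9 of 10 erythroid genes were lower and 0 higher, against the 53.0% and 4.84% of all genes. Without WT replicates 2 and 5, the genes lower and higher in edgeR were 1 and 2 for blood endothelium, 4 and 2 for lymphatic endothelium, 4 and 1 for stroma, 0 and 5 for muscle, and 7 and 0 for keratinized epithelium. In that fit 12.6% of all genes were lower and 9.04% higher.

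The genes closest to each marker in profile were found by the root mean square difference of log2 CPM, centred on each gene's mean, over the 9 libraries and among 12920 genes of at least moderate level. For Cd68 they were Plbd1 (0.0886), Lgals9 and Plekho2, for Adgre1 Hsd11b1 (0.116), Skap2 and St8sia4, and for Mrc1 Stk17b (0.117), Fam111a and Smc2. Vcam1 had Dock11 (0.0800), Fam111a and Gas7, so that Fam111a was among the 3 closest genes of both Mrc1 and Vcam1. The closest genes of Siglec1 were Pcsk6 (0.123), Slc1a4 and Pcdh7, and those of Cd163 were Ehf (0.183), Tspan2 and Macc1. Mertk had Cx3cl1 (0.0598), Clip2 and Ahcyl2, Lyve1 had Mt2 (0.286), Cntfr and Hspa1a, and Timd4 had Cd274 (0.453), Nlrc5 and Csf2rb. A gene that varies little between libraries gives small differences to many genes, and Lyve1 and Timd4 were the markers with the most distant closest genes. Among the markers themselves, the smallest differences were those of Adgre1 and Vcam1 (0.143), Mrc1 and Vcam1 (0.149) and Cd68 and Vcam1 (0.213), and the largest was that of Timd4 and Lyve1 (1.01).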

How the data were processed

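Poly(A) RNA of whole mandibles from 5 WT mice and 4 mice labelled FcγRIIB-/- was sequenced as stranded libraries, 1 mouse per library. Per the submitters' processing notes, the authors used Trim Galore for trimming, HISAT 02.1.0 for alignment to mm10 and featureCounts for counting. The deposited values are raw counts per gene. The gene annotation and the strand setting of the counting are not given in the sources used here, so reads shared with overlapping genes cannot be assessed. 1 column of per-sample values matched no sample and was not used. 1030 genes without a symbol were kept under their identifiers.

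Counts were analysed in R 4.3.3 with edgeR 4.0.16: TMM factors, filterByExpr (minimum count 10), a quasi-likelihood F test between genotypes over all 9 libraries, and Benjamini-Hochberg adjustment at 0.05. Dividing the size of a log2 fold change by the square root of F gave its standard error. Ratios to Cd68 were tested with limma 3.58.1 on log2 CPM with a prior count of 2. RPKM used the union of GENCODE M21 exons, and coordinates and promoters are from RefSeq GRCm38.p6. Both tests were tested on simulated data. There the ratio test did not hold its false calls to the threshold, since all ratios share the error of Cd68, and an exact permutation test of each marker's ratio was added. Totals of 21453880 to 28991631 counts leave markers under 1 CPM on few reads.

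The markers, lists and motifs were chosen with earlier results of these data known. The genes named are all markers, Fcgr2b, from each list the 2 with the largest change among those past the threshold and the 2 most abundant that did not pass, and the 3 closest genes in profile. Il34, Csf1r, Csf1, Tyro3, Gas6, Folr2, Prox1, Flt4, Reln, Tbx1, Pdpn, Tfrc, Krt5, the C1q genes and the genes called higher in the macrophage lists were named after their values were seen. Cr2 and Ccr7, named for their level in WT replicate 2, were not picked by these rules either. DESeq2 1.42.0, other normalizations, filters, a fold limit, a replicate block and leaving out libraries were alternatives.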

Additional observations from a re-analysis of the deposited data

Results flagged for a closer look

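2 of 20 groups of values (each of the 10 markers in each genotype) held a library far from the rest, and chance alone flags about 1 group in 20. Siglec1 was 11.7 CPM in WT replicate 5, where the other WT libraries lay between 5.69 and 5.91 CPM. This library was also the highest in the summed neutrophil and keratinized epithelium genes, and the part of either in the Siglec1 value was not tested. Marco was 1.28 CPM in WT replicate 2, where the other WT libraries lay between 0 and 0.195 CPM, and that library was also the highest for Timd4, Cr2, Ms4a1 and Ccr7.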

How the results depend on the processing

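No marker that passed the test changed direction under any alternative run, and Mrc1, Vcam1 and Siglec1 kept an adjusted p under the threshold in all of them (highest 0.0121, 0.0214 and 0.0328, edgeR). With a log2 fold limit of 1, Mrc1 and Vcam1 also dropped out and 1 marker, Siglec1, was lower, and 1069 genes in all were lower and 181 higher. Without WT replicates 2 and 5 together, an alternative added after seeing the data, 3 markers were lower, 2066 genes were lower and 1479 higher, and lower dendritic cell genes went from 6 to 3. DESeq2 called 1 marker higher, Lyve1, where it called 2831 of all genes higher. The cause of these shifts was not tested, beyond the fewer libraries or the stricter limit itself. Leaving out 1 library at a time gave 4 to 6 markers lower and 0 to 1 higher, the latter without WT replicate 5. Over all genes these fits gave 2521 to 2771 lower and 1781 to 2292 higher. Relative to Cd68, 1 to 2 markers were higher. Replicate numbers are shared by different animals, and deviations from the group means of same-numbered libraries correlated at 0.0969, 0.0276, -0.114 and -0.0739, so the numbers do not pair the samples. With the replicate block, 4 markers were lower and 0 higher, Adgre1 differed by -0.51 on the log2 scale (adjusted p = 0.0881, edgeR), and 2410 genes were lower and 1594 higher. WT replicate 5 has no library of the same number in the other group, so the block gives it no weight in the difference. Without the filter, Marco differed by -2.78 on the log2 scale (edgeR adjusted p = 0.161, standard error 1.34). Depth limits Marco and Timd4.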
